A study of Equus caballus with 4 samples.

Results

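Matrix metalloproteinases, the ADAM and ADAMTS proteinases and their tissue inhibitors were described in differentiating equine satellite cells incubated with gamma-oryzanol (GO), a mixture of ferulic acid esters from rice bran oil. The genes were chosen by name: every noncontrol probe was taken whose gene symbol was MMP, ADAM, ADAMTS or TIMP followed by a number. This gave 52 genes with 106 probes, of 24998 gene names with 43603 probes on the array. They were 18 MMPs, 15 ADAMs, 15 ADAMTSs and 4 TIMPs, and each gene was represented by its brightest probe.

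The cells were primary cultures from the *semitendinosus* muscle of 6-month-old colts, and the culture with the best viability and fusion was taken forward. In the treated cells, 125 nM GO in DMSO was added after the 2nd day of differentiation for 24 h, and control cells received the same volume of DMSO (0.04 μl/ml). Each of 4 arrays, all on 1 slide, received RNA of treated cells in Cy5 mixed with RNA of control cells in Cy3. The labels call the 4 arrays biological replicates, but neither they nor the methods say whether these were several horses or parallel cultures of 1 isolate, and in the latter case the p-values measure only the spread between those cultures. The dyes were not swapped, so dye bias and the effect of GO cannot be told apart at any single probe.

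MMPs are secreted or membrane-bound zinc proteinases that cut collagens and other matrix proteins, and most are made as inactive precursors. TIMPs bind to their active site, and the gelatinase MMP2 is activated at the cell surface by the membrane proteinase MMP14 with TIMP2 as an adaptor. ADAMs are membrane proteinases, several of which release the outer part of growth factors, cytokines and receptors from the cell. ADAMTSs are secreted, and different members cut proteoglycans or trim the ends of procollagens. In skeletal muscle such enzymes are known for remodeling the matrix around fibers while satellite cells migrate and fuse.

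The probes are 60 bases long, and their positions refer to EquCab1, the build in the files. The *timp2* and *adam17* probes below are shown because probes of 1 gene gave different ratios. Probes 1 and 2 of *timp2* lie at chr11:2633428-2633487 and chr11:2641586-2641645 on the plus strand.
timp2 probe 1: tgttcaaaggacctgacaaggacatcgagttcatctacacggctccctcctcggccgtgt
timp2 probe 2: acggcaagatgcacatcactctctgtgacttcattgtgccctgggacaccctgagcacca
The other 5 *timp2* probes overlap one another within chr11:2643354-2643417, starting 1709 bases after the end of probe 2. Each of them holds AATAAA, the usual signal for adding a poly(A) tail, on the probe strand, as did 8.64% of all 43603 probes searched on that strand, and none of their reading frames is open. They are not printed here.

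The 3 *adam17* probes lie on the plus strand of chromosome 15. Probe 1 is drawn from chr15:80492587-80494936 and probe 2 from chr15:80494937-80494996, so the pair adjoin. Probe 3 is drawn from chr15:80517320-80517919, 22324 bases further on. A 60-base probe drawn from a longer interval skips bases of the genome, as one across an intron does.
adam17 probe 1: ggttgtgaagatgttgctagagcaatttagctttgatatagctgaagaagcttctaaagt
adam17 probe 2: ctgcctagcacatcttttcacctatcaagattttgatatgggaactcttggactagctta
adam17 probe 3: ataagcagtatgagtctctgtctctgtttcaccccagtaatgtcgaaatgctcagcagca
The probes of *adamts8* (chr7:35522982-35523041, minus strand), *adamts4* (an unplaced contig) and *adamts6* (chr21:4253965-4254024, plus strand) are shown because the values of these genes rest on 1 probe each. Each of these 8 printed probes has at least 1 open sense reading frame.
adamts8: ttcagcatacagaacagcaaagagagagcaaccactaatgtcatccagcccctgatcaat
adamts4: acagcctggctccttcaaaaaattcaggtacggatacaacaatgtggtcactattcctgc
adamts6: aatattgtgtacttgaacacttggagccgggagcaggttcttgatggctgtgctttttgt

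The share of all spots well above background was 63.5 to 68.9% for control RNA and 57.4 to 67.0% for GO RNA. By the same measure 21 of the 52 genes were above background in both channels on all 4 arrays, and 4 more (*adam18*, *adamts4*, *adamts8* and *adamts14*) in the control channel on all arrays but in the GO channel on 1 to 3. These 25 genes were tested. The brightest probes of 17 genes were not above background on any array in either channel. All but 1 of the TIMPs were tested, against 6 of 18 MMPs, 8 of 15 ADAMs and 8 of 15 ADAMTSs.

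**Figure D1:**
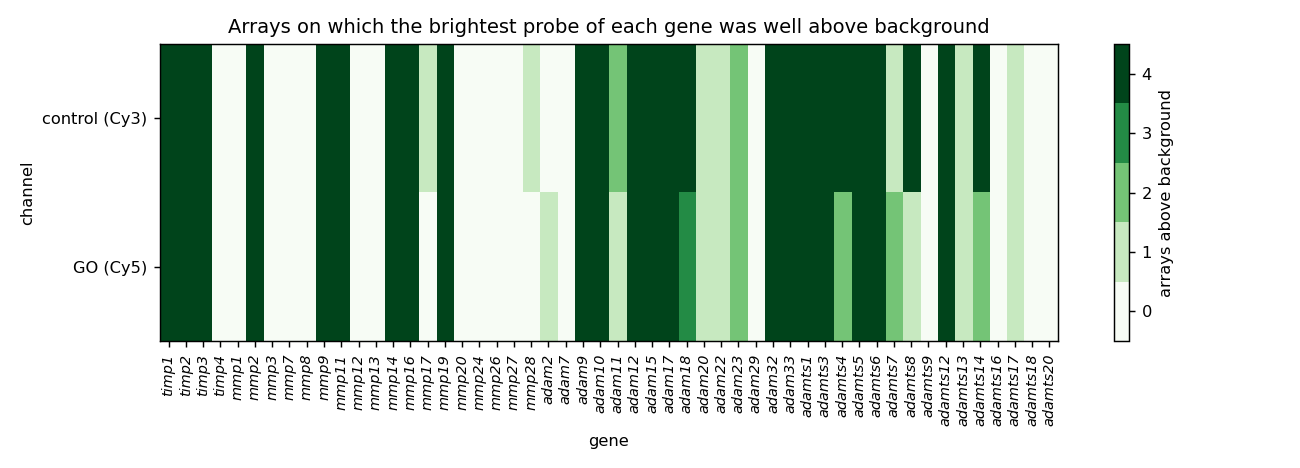
Number of arrays, from 0 to 4, on which the brightest probe of each of the 52 genes exceeded background clearly, with control RNA in the top row and GO RNA in the bottom row. The 3 tested TIMPs and 6 tested MMPs were above background in both channels on all arrays, and 17 genes on none.

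A change had to pass both of these thresholds: an adjusted p no higher than 0.05 (limma with Benjamini-Hochberg adjustment over all 26834 tested probes) and a fold change no smaller than 1.3, which is a log2 ratio of 0.38 in size. Of the 21 genes above background in both channels on all arrays 4 passed both thresholds when that signal was required of every probe, 19.0%, beside a background of 8.32% of the 13873 gene names tested so. *Adamts3* and *adamts6* rose, and *timp2* and *adam17* fell. With signal in either channel sufficient, which is the filter behind the adjusted p given below, 7 of the 25 genes passed, beside 8.8% of 15303 gene names (3.45% higher and 5.35% lower), and by adjusted p alone 9 passed, beside 17.1%. The added genes *adamts4*, *adamts8* and *adamts14* entered the test through the control channel alone, where they were high, so nothing is read from the count over the 25, and the ratios of these 3 genes are given without a test. The median log2 ratio of the 25 genes was -0.04 and that of all gene names 0.01.

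The count of 7 rested on the processing. It was 1 (*adam17*) when background was corrected with normexp and the dyes were balanced by a separate loess fit, and 0 with centring on the array median as the sole dye correction. It was also 0 with a plain one-sample test, which few probes of the whole array passed, so nothing is read from that 0. Without array 2 or without array 4 it was 2, of which *timp2* was above background in both channels, and without array 1 it was 4.

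**Figure D2:**
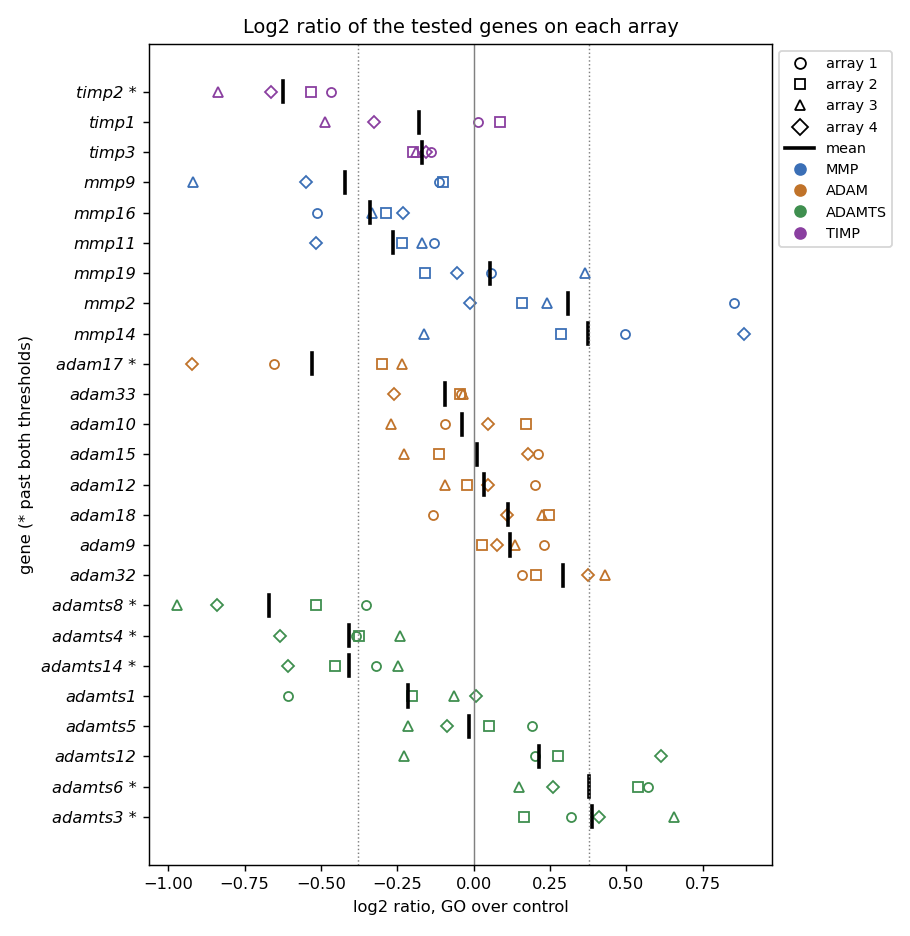
Log2 ratio of GO over control (x axis) on each of the 4 arrays for the 25 tested genes (y axis), by family. Open symbols are arrays, black bars are means, dotted lines mark a fold change of 1.3, and asterisks mark the 7 genes past both thresholds. Of these *timp2*, *adam17* and 3 ADAMTSs lie to the left and *adamts3* and *adamts6* to the right. The 3 ADAMTSs to the left entered through the control channel alone, where they were high, so their asterisks are not read as a test.

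Among the inhibitors, *timp2* fell. Its signal in control cells was 92695, 101437, 116529 and 88728 on arrays 1 to 4, and in GO-treated cells 66989, 70154, 65287 and 55954. Every control value lay above every GO value. The log2 ratio was -0.47, -0.53, -0.84 and -0.67, with a mean of -0.63 ± 0.16 (SD, n = 4), a 1.54-fold lower level (limma, Benjamini-Hochberg adjusted p = 0.0056). The call held without any 1 array, at mean ratios between -0.56 and -0.68. With normexp and loess the ratio was -0.35 (adjusted p = 0.0087), under the fold threshold, and with centring alone it turned to 0.24 (adjusted p = 0.62). *Timp2* ranked 332nd and *timp1* 211th by brightness among the tested probes, and the 100 brightest, which held neither, had a median log2 ratio of 0.14 in the Feature Extraction ratios, 0.53 with normexp and loess and 1.18 with centring alone.

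The 7 *timp2* probes did not carry 1 ratio. The 5 overlapping probes at the 3′ end lay between -0.57 and -0.63, and all passed both thresholds. Probes 1 and 2, further upstream, had -0.31 ± 0.24 (adjusted p = 0.070) and -0.33 ± 0.20 (adjusted p = 0.044), both SD with n = 4, and missed the fold threshold. On array 1 these probes were at 0.04 and -0.04, while the 3′ probes were at -0.42 to -0.47. The exact two-sided sign-flip permutation p used below is always 0.13 when 4 arrays share 1 sign, the smallest that their 16 sign patterns allow. It was taken for differences between probes or genes chosen after their values were seen, so nothing is read from it. The mean of the 3′ probes was lower than that of the upstream probes on 4 of 4 arrays, by -0.28 ± 0.15 (exact p = 0.13). This difference was -0.03 with normexp and loess and turned to 0.14 with centring alone. With normexp and loess the 3′ probes lay between -0.28 and -0.35 and the upstream probes at -0.29 and -0.27, and with centring alone all 7 were above 0.

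**Figure D3:**
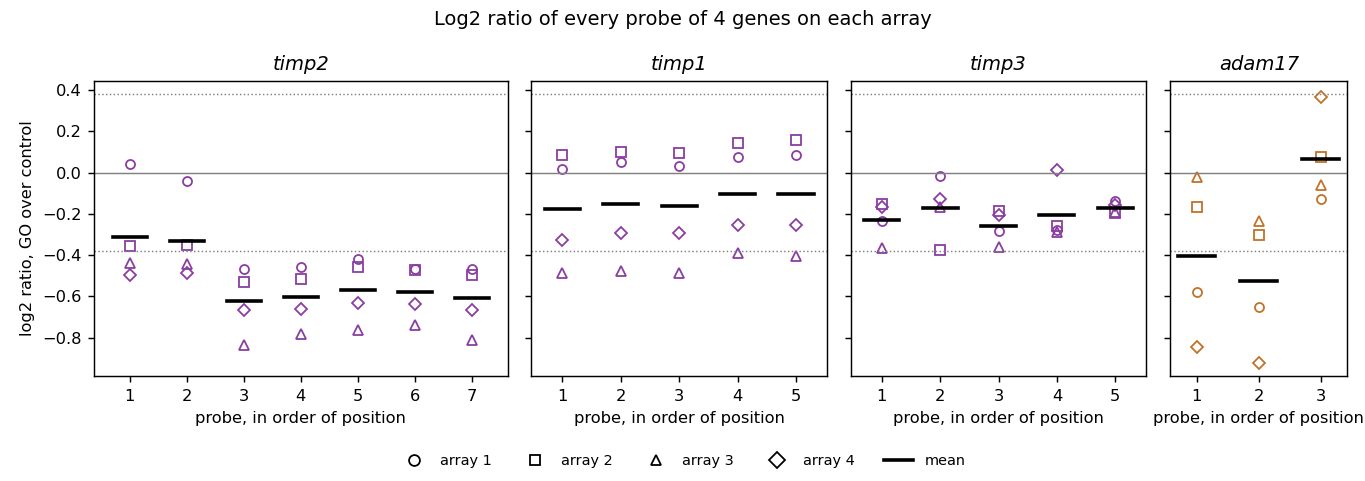
Log2 ratio of GO over control (y axis) on each array for every probe of *timp2*, *timp1*, *timp3* and *adam17*, in order of position along the chromosome (x axis); bars are means and dotted lines mark a fold change of 1.3. *Timp2* probes 3 to 7 lie below probes 1 and 2, and *adam17* probe 3 lies near 0 while probes 1 and 2 lie below.

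*Timp1* and *timp3* did not pass. *Timp1*, an inhibitor of most secreted MMPs, had log2 ratios of 0.02, 0.09, -0.49 and -0.32, a mean of -0.18 ± 0.27 (SD, n = 4; adjusted p = 0.28), with arrays on both sides of 0. Its 5 overlapping probes on chromosome X gave means between -0.10 and -0.18, all of which turned positive with normexp and loess (0.15 to 0.20) and with centring alone (0.75 to 0.80). *Timp3*, which is held in the matrix, had -0.14, -0.20, -0.19 and -0.16, a mean of -0.17 ± 0.03 (SD, n = 4; adjusted p = 0.073). Its 4 other probes lay between -0.17 and -0.26, of which 2 had an adjusted p under the threshold (0.032 and 0.049) at ratios too small for the fold threshold. The log2 ratio of *timp2* minus that of *timp1* was -0.45 ± 0.13, below 0 on 4 of 4 arrays (exact p = 0.13), and it was -0.53 with normexp and loess and with centring alone. The log2 ratio of *timp2* minus that of *timp3* was -0.45 ± 0.15, also below 0 on 4 of 4 arrays (exact p = 0.13), but it was -0.24 with normexp and loess and turned to 0.36 with centring alone. *Timp4* was not above background on any array.

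*Adam17* passed both thresholds on 1 of its 3 probes. Of the 7 ADAMs above background in both channels on all arrays it alone passed, beside 8.32% of the gene names tested so. *Adam17* encodes the convertase that releases tumor necrosis factor and epidermal growth factor receptor ligands from the cell surface. The signal of its brightest probe, probe 2, was 1129, 811, 793 and 1048 in control cells and 717, 659, 674 and 553 in GO-treated cells, without overlap. The log2 ratio was -0.65, -0.30, -0.24 and -0.92, with a mean of -0.53 ± 0.32 (SD, n = 4; adjusted p = 0.031). The adjusted p rose to 0.056 without array 4, to 0.066 without array 2 and to 0.088 without array 1. The ratio stayed below 0 with normexp and loess (-0.43, adjusted p = 0.038) and with centring alone (-0.35, adjusted p = 0.30).

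The adjoining *adam17* probe 1 had -0.58, -0.17, -0.02 and -0.85, a mean of -0.40 (adjusted p = 0.089). Probe 3 had -0.13, 0.08, -0.06 and 0.37, a mean of 0.06 (adjusted p = 0.66). The pair lay below probe 3 on 4 of 4 arrays, by -0.53 ± 0.51, again with an exact permutation p of 0.13. The distance was smallest on array 3 at -0.07 and largest on array 4 at -1.25. Probe 3 stayed near 0 with normexp and loess (0.06) and with centring alone (0.03). In the Feature Extraction ratios and with normexp and loess 1 of the 3 *adam17* probes, probe 2, passed both thresholds. With centring alone none did (adjusted p = 0.43, 0.30 and 0.92 for probes 1, 2 and 3).

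The other 7 tested ADAMs did not pass both thresholds. *Adam10*, the other main shedding enzyme, had a mean log2 ratio of -0.04 with a 95% interval of -0.24 to 0.16. *Adam9* had 0.12 (-0.03 to 0.26), *adam15* 0.01 (-0.20 to 0.23) and *adam12*, which is expressed in fusing myoblasts, 0.03 (-0.13 to 0.20). None of these 4 intervals reached the log2 ratio of 0.38. *Adam32* had 0.16, 0.21, 0.43 and 0.37, a mean of 0.29 ± 0.13 (SD, n = 4; adjusted p = 0.034), and missed the fold threshold. Its second probe, adjoining the first, was above background on 3 arrays in each channel and was not tested. *Adam33* and *adam18* had adjusted p of 0.34 and 0.35.

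Of the 5 ADAMTSs above background in both channels on all arrays 2 passed both thresholds, beside 8.32% of the gene names tested so. Both rose. The 3 that entered through the control channel were dim. *Adamts8* had control signals of 21.6, 25.0, 19.3 and 26.7 and GO signals of 16.9, 17.5, 9.85 and 14.9. These ranges did not overlap, but entry through the control channel favors such a gap, so nothing is read from it. Its log2 ratio was -0.35, -0.52, -0.97 and -0.84, with a mean of -0.67 ± 0.29 (SD, n = 4). It was above background on 4 arrays in the control channel and on 1 in the GO channel, so 3 of the 4 GO values were not well above background.

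*Adamts4*, one of the aggrecanases, had log2 ratios of -0.39, -0.38, -0.24 and -0.63, a mean of -0.41 ± 0.16 (SD, n = 4). Control signals were 34.7, 46.0, 24.6 and 35.9 and GO signals 26.6, 35.5, 20.8 and 23.2. The GO value was lower on every array, but the ranges overlapped. *Adamts14*, a procollagen N-proteinase, had -0.32, -0.45, -0.25 and -0.61, a mean of -0.41 ± 0.16 (SD, n = 4). Control signals were 36.4, 57.2, 25.7 and 25.8 and GO signals 29.2, 41.8, 21.6 and 16.9, which also overlapped. Both genes were above background in the control channel on 4 arrays and in the GO channel on 2.

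The 2 genes that rose lay just over the fold threshold. *Adamts3*, another procollagen N-proteinase, had 0.32, 0.17, 0.65 and 0.41, a mean of 0.39 ± 0.20 (SD, n = 4; adjusted p = 0.030). Control signals were 205, 259, 140 and 155 and GO signals 256, 290.5, 221 and 206, higher on every array with overlapping ranges. The call was lost without any 1 array (adjusted p between 0.053 and 0.090). A second tested probe near the other end of the gene gave 0.34 (adjusted p = 0.090), and the remaining 3 were too dim to be tested. *Adamts6* had 0.57, 0.54, 0.15 and 0.26, a mean of 0.38 ± 0.21 (SD, n = 4; adjusted p = 0.033). Its signals were 43.5, 45.0, 34.6 and 32.6 in control cells and 64.7, 65.4, 38.4 and 39.0 in GO-treated cells. Its call was lost without array 1, 2 or 4 (adjusted p = 0.078, 0.12 and 0.052). A further probe that the files describe as *adamts6* but list under an accession had 0.17 ± 0.14 (SD, n = 4; adjusted p = 0.15).

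**Figure D4:**
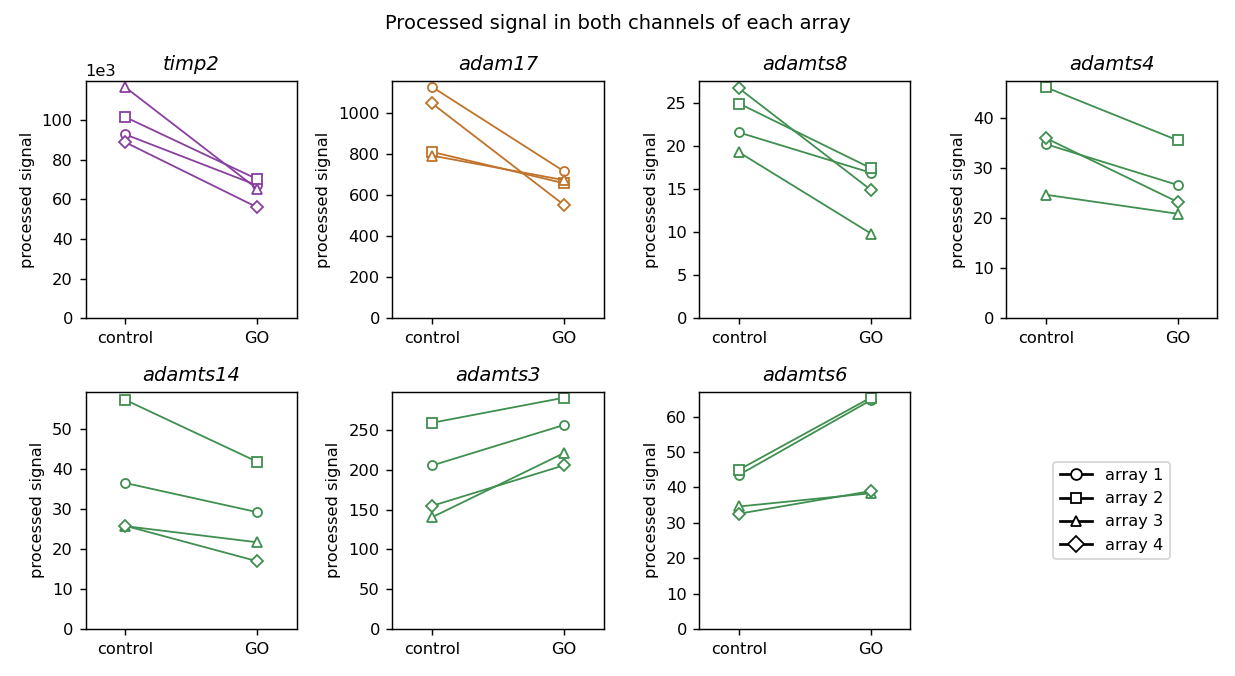
Processed signal (y axis, from 0, linear and on its own scale for each gene) in the control and GO channels of the 4 arrays for the 7 genes past both thresholds; a line joins the 2 channels of 1 array. All lines fall for *timp2*, *adam17*, *adamts8*, *adamts4* and *adamts14* and rise for *adamts3* and *adamts6*. *Adamts8*, *adamts4* and *adamts14* entered through the control channel alone, which favors a fall.

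*Adamts5*, the other main aggrecanase, had a mean log2 ratio of -0.02 with a 95% interval of -0.21 to 0.17, and its other 2 probes had -0.14 and -0.10. *Adamts1* had -0.61, -0.20, -0.06 and 0.01, a mean of -0.22 ± 0.27 (SD, n = 4; adjusted p = 0.20), so that array 1 lay apart from array 4. *Adamts12* had a mean of 0.22 ± 0.35 (SD, n = 4; adjusted p = 0.27), and its 4 other probes, shifted by 1 to 4 bases, ran from -0.15 to 0.07.

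Of the 6 MMPs tested with limma 0 passed both thresholds, beside 8.8% of all gene names, so nothing is read from a 0 among so few. An unadjusted limma p under 0.05 was found for 4 of them, but the share over all gene names was not taken. With the plain one-sample test, which few probes of the whole array passed, 0 passed. *Mmp14*, the membrane activator of *mmp2*, had log2 ratios of 0.50, 0.29, -0.16 and 0.88, a mean of 0.38 ± 0.44 (SD, n = 4; adjusted p = 0.14). Its second probe had 0.34, 0.19, 0.03 and 1.64, a mean of 0.55 ± 0.74 (adjusted p = 0.17). *Mmp2*, gelatinase A, had 0.85, 0.16, 0.24 and -0.01, a mean of 0.31 ± 0.38 (SD, n = 4; adjusted p = 0.16), and its second probe had the same mean with values between 0.13 and 0.70. The high values of *mmp14* were on array 4 and that of *mmp2* on array 1. *Mmp9*, gelatinase B, had -0.11, -0.10, -0.92 and -0.55, a mean of -0.42 ± 0.39 (SD, n = 4; adjusted p = 0.087), which is past the fold threshold but not the other.

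*Mmp16*, a membrane-bound member, had -0.51, -0.29, -0.33 and -0.23, a mean of -0.34 ± 0.12 (SD, n = 4; adjusted p = 0.021), and missed the fold threshold. *Mmp11* had -0.26 (adjusted p = 0.065) and *mmp19* 0.05 (adjusted p = 0.73). Minus that of *timp2* on the same array, the log2 ratio of *mmp14* was 1.00 ± 0.38 and that of *mmp2* 0.94 ± 0.32, above 0 on 4 of 4 arrays. With normexp and loess these differences were 0.55 and 0.49, and with centring alone both turned to -0.05. The 6 differences between probes or genes given here were chosen after their values were seen, and so were their repeats under the other scalings. In the Feature Extraction ratios each was of 1 sign on all arrays and had an exact permutation p of 0.13, which Benjamini-Hochberg adjustment over the 6 leaves at 0.13.

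The 27 genes that were not tested included most MMPs. The collagenases *mmp1*, *mmp8* and *mmp13*, the stromelysin *mmp3*, and *mmp7*, *mmp12*, *mmp20* and *mmp27* lie together at chr7:9114630-9452738. Their 20 probes were not above background in either channel on any array. *Mmp1* shows what a ratio means there: its brightest probe gave 1.08, 2.12, 2.30 and 0.00, while 7 further probes gave 0.00 on nearly all arrays, so no fold is given. In all, 39 of the 108 ratios of the untested genes were exactly 0. The others were *mmp17*, *mmp24*, *mmp26*, *mmp28*, *adam2*, *adam7*, *adam11*, *adam20*, *adam22*, *adam23*, *adam29*, *adamts7*, *adamts9*, *adamts13*, *adamts16*, *adamts17*, *adamts18*, *adamts20* and *timp4*. Of the 27, 10 were above background on at least 1 array in some channel, and a change in these genes was not measurable at this signal.

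A list of 62 other genes of extracellular proteolysis was described in the same way. Probes were found for 47 of them, 32 were tested, and 5 passed both thresholds, 2 upward and 3 downward, or 15.6%, beside the 8.8% of all gene names. *Serpinb2*, an inhibitor of plasminogen activators, rose by 0.52 ± 0.16 (adjusted p = 0.0086), and *serpine2*, another such inhibitor, had -0.42 ± 0.21 (adjusted p = 0.026). *Ece1*, a membrane metalloprotease that activates endothelin, rose by 0.52 ± 0.27 (adjusted p = 0.022). *Ereg*, an epidermal growth factor receptor ligand released by ADAM17, had -0.88 ± 0.32 (adjusted p = 0.0072), and *ctss*, a cathepsin, had -0.48 ± 0.29 (adjusted p = 0.031). Each value is a mean log2 ratio with its SD over 4 arrays from the same limma fit. Of the 6 tested genes among MMP regulators and partners and the 3 tested proprotein convertases 0 passed both thresholds with limma. Beside the 8.8% of all gene names, nothing is read from a 0 among so few. An unadjusted limma p under 0.05 was found for 4 of these 9, but the share over all gene names was not taken. With the plain one-sample test, which few probes of the whole array passed, 0 passed. *Cd44*, a hyaluronan receptor that can hold MMP9 at the cell surface, passed the adjusted p alone (0.042) at a log2 ratio of 0.29 ± 0.16 (SD, n = 4).

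Of 10 tested myogenic markers 7 fell past both thresholds, among them *myog*, *des* and *myh3*, beside 5.35% of all gene names. The median log2 ratio over the list was -0.54. Its summed signal was 239932 to 341213 in control cells and 160538 to 229043 in GO-treated cells. Of 7 tested fibroblast markers 1 rose (*pdgfra*) and 0 fell, beside 3.45% higher and 5.35% lower of all gene names. The sums of that list were 279050 to 443649 and 288931 to 401592. These marker ratios are Feature Extraction ratios and were not repeated under the other scalings, which moved the ratios of the brightest probes. The 3 tested leukocyte and 4 tested smooth muscle and pericyte markers did not pass, and none of the 6 endothelial or 5 adipocyte markers with a probe was tested, their sums being at most 136. In bulk RNA, fewer cells of a type and less RNA per cell cannot be told apart. The part of these shifts in the ratios of *timp2*, *adam17* and the ADAMTSs was not tested.

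**Figure D5:**
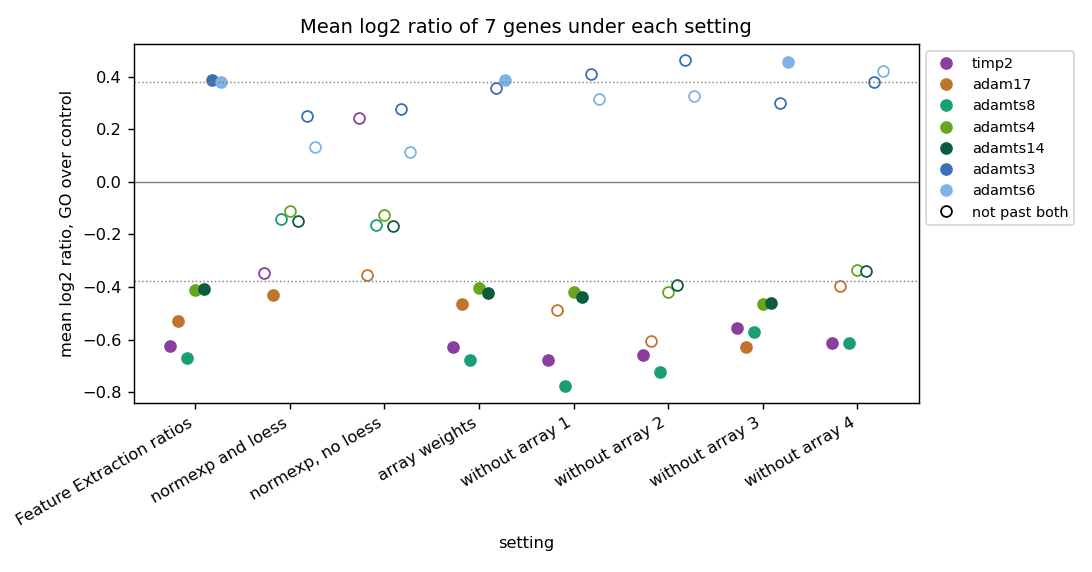
Mean log2 ratio of GO over control (y axis) of the 7 genes under 8 settings (x axis); filled circles passed both thresholds and open circles did not, and dotted lines mark a fold change of 1.3. *Timp2* turns above 0 with normexp and no loess, and *adamts8*, *adamts4*, *adamts14* and *adamts6* move toward 0 with both normexp settings. The filled circles of *adamts8*, *adamts4* and *adamts14* are not read as a test, since these genes entered through the control channel alone.

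The dim ADAMTSs moved toward 0 wherever normexp was used. With normexp and loess the log2 ratio was -0.14 for *adamts8*, -0.11 for *adamts4*, -0.15 for *adamts14* and 0.13 for *adamts6*, and 0.25 for *adamts3*. That setting adds an offset of 50 to every signal, which exceeds the mean signal of *adamts4*, *adamts8* and *adamts14* in both channels, so a ratio of such genes is smaller by construction. None of the 5 ADAMTSs changed sign under any setting tried on its brightest probe, but all settings reused the same arrays. For *adamts4*, *adamts8* and *adamts14* entry through the control channel favored a negative sign in advance, so nothing is read from their signs. *Adamts3* kept its call in 1 of 11 other settings and *adamts6* in 3 of 11.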

How the data were processed

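The authors scanned 4 two-color arrays and ran Feature Extraction (10.10.1.1 per the file headers, another version in the methods) with linear and lowess dye normalization. Per the file headers the deposited log10 ratios are processed Cy5 over Cy3, and the intensity columns used here are processed, mean and background signals. The other deposited flag columns mark spots above background and outliers.

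Ratios were converted to log2, outlier spots and 1417 control spots were left out, and duplicate spots averaged. Probes were kept if all 4 arrays were well above background in at least 1 channel, and tested against 0 with limma 3.58.1 in R 4.3.3 (lmFit, eBayes, two-sided, Benjamini-Hochberg), using the thresholds of the methods. The test was also run on simulated ratios with independent noise and no dye bias, which could not check for effects of dye or scaling. The number of arrays limits the precision. Genes named were those past both thresholds, all TIMPs, 15 preselected enzymes, of which *adam19* has no probe under its symbol, the 5 brightest, and others for range. The members and lists were chosen with earlier results of these data known. The ratio within the array pairs the channels, whose deviations from the group means correlated at 0.48 to 0.86 on the same array. The alternatives were other background and dye corrections, other filters, tests and probes, and leaving out each array.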

Additional observations from a re-analysis of the deposited data

Results flagged for a closer look

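In 1 of 30 genes examined, the 25 tested genes and the 5 related genes that changed, 1 array lay far from the other 3. It was *adam33*, whose log2 ratio was -0.04, -0.04, -0.04 and -0.26 on arrays 1 to 4. The gap between array 4 and the nearest other array made up 0.965 of the whole range, above the 95% limit of Dixon's test for 4 values. Chance gives such a gap in about 1 of 20 groups of 4.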

How the results depend on the processing

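The counts of changed genes depended on the processing, and causes beyond the construction of a setting were not tested. Of all probes 2399 passed, of the 25 genes 7, and of the related genes 5. With normexp and loess these counts were 1297, 1 and 3, with normexp and centring alone 368, 0 and 0, and without a filter on dim probes 908, 1 and 1. Of the probes past both thresholds 894 were higher and 1505 lower, against 347 and 21 with centring alone. With the plain one-sample test they were 147, 0 and 0. With the channels as separate samples, which drops the pairing by array (no replicate block), they were 370, 1 and 1. With signal required in both channels 4 of the 21 genes tested so passed. When every tested probe of a gene had to pass, 4 genes did: *adamts4*, *adamts6*, *adamts8* and *adamts14*. Each has 1 tested probe, so for them that rule repeats the first call. *Timp2*, *adam17* and *adamts3*, with more tested probes, did not pass it. By adjusted p alone 4857 probes and 9 related genes passed. Leaving out 1 array gave 1566 to 2430 probes, 2 to 6 of the genes and 2 to 4 related genes. A slide block could not be fitted, since all arrays shared 1 slide.

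Over single genes and settings, values kept direction and status 227 times, lost the call 50 times and changed direction 20 times. The 227 include genes not called at first that stayed so, and only called genes could lose a call. On its brightest probe *adamts3* kept the call in 1 of 11 other settings, *adamts6* in 3, *adam17* in 4 and *timp2* in 8. The changes of direction were in genes not called, except those of *timp2* and of a second *adam17* probe. With centring alone *timp2* was at 0.24, *timp1* at 0.77, *adam15* at -0.018, *adamts5* at 0.0040 and *mmp19* at -0.00094. With normexp and loess *timp1* was at 0.18, *adam15* at -0.028 and *mmp19* at -0.0026. With array weights *adam10* was at 0.0065 and *adam15* at -0.039. Leaving out 1 array gave *adam10* -0.11 to 0.041, *adam12* -0.024 to 0.075, *adam15* -0.054 to 0.091, *adamts5* -0.084 to 0.051 and *mmp19* -0.052 to 0.12. Of the differences between probes or genes, repeated under other scalings after seeing the data, those of *timp2* 3′ minus upstream probes, *timp2* minus *timp3*, *mmp14* minus *timp2* and *mmp2* minus *timp2* turned to 0.14, 0.36, -0.054 and -0.049 with centring alone. Among other probes of a gene, 1 of *adam17* was at 0.063 and 2 of *adamts12* were at -0.15 and -0.041. Signal near background limits the untested genes, *adamts8*, *adamts4* and *adamts14*.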

Other observations

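Several genes of these families carry an accession or a locus name in the files and were therefore not among the 52. A probe described as ADAM 1a-like (LOC100057424) had log2 ratios of 1.19, 1.59, 1.47 and 1.38, a mean of 1.41 ± 0.17 (SD, n = 4). Control signals were 25.7, 21.0, 15.9 and 13.3 and GO signals 58.6, 63.0, 44.1 and 34.5, without overlap, and the control channel was above background on 2 of 4 arrays. The probe entered the fit through the GO channel, where it was high, and was chosen after its values were seen, so these values are a description without a test. The ratio was 0.40 with normexp and loess and 0.38 with centring alone.

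*Mmp23b* had a mean of 0.35 ± 0.21 (limma, Benjamini-Hochberg adjusted p = 0.040) and *mmp15* -0.33 ± 0.41 (adjusted p = 0.16), neither past both thresholds in the same fit. *Adam19* had 0.07 ± 0.24 (adjusted p = 0.62). The 5 overlapping probes of *adamts2*, a procollagen N-proteinase like *adamts3* and *adamts14*, lay between -0.003 and 0.02, with SDs of 0.02 to 0.05 over the 4 arrays. Its signals were well above background in both channels on all arrays. *Adamts15* had 0.02 ± 0.23 (adjusted p = 0.88). The probes described as *mmp21*, *mmp25*, *adam28*, *adamts10*, *adamts19* and ADAM 20-like were not tested.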
